A study of Homo sapiens with 3 samples.

Results

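RSPO3 and 9 other genes of the Wnt pathway (WNT5A, WNT5B, LGR4, FZD5, LRP6, ZNRF3, RNF43, AXIN2, and CTNNB1) were read in human THP-1 macrophages that had been stimulated with imiquimod (IMQ). A transcript probe belonged to a gene when the scanner output gave it that gene's name. The 10 genes had 14 of the 58201 transcript probes, and 22705 gene names on the array matched a RefSeq gene. The genes were chosen with values of these same arrays in view, so their differences are described here and are not tested.

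THP-1 cells derive from a human monocytic leukemia. A PMA step (100 ng/ml, 24 to 36 h) and a night in new medium made them macrophages before the treatments. Total RNA of 3 conditions was labelled with Cy3 and hybridized to 1 one-color Agilent array each, all on 1 slide, and the labels give 4 h for all 3. The Ctrl array held cells that the label calls normal, with neither compound. The IMQ array held cells given IMQ, a ligand of Toll-like receptor 7 that activates macrophages. The IMQ+X array held cells given IMQ together with a compound that the label writes as X. The treatment protocol names no compound beside IMQ and PMA other than DMD, a benzenoid isolated from the mushroom Antrodia cinnamomea, which was given before IMQ. The line is a single leukemia line, and all 3 conditions shared the PMA step. There was no array of cells given DMD alone among the samples analysed here, and there was 1 array per condition. No value therefore has an error between cultures, and no p-value can be given. Where 3 intensities follow each other without further words, they are those of Ctrl, IMQ, and IMQ+X in that order.

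Wnt proteins are lipid-modified secreted ligands that bind Frizzled receptors with the co-receptors LRP5 and LRP6. The signal stops the destruction complex, which otherwise marks β-catenin for degradation, and β-catenin then works with TCF and LEF factors in the nucleus. R-spondins such as RSPO3 carry no such signal alone. They bind LGR4, LGR5, or LGR6 and the ubiquitin ligases ZNRF3 and RNF43, which remove Frizzled from the cell surface, and so they raise the amount of receptor. WNT5A mostly acts without β-catenin, and in macrophages it is known from inflammatory activation.

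Probes of RSPO3, CTNNB1, and AXIN2 are shown first, for the R-spondin, for β-catenin, and for its feedback target. Those of RSPO3 and AXIN2 stand for their genes here, and that of CTNNB1 is the dimmer of its 2 probes. Each is 60 bases long and has 0 stop codons in its first frame. They are called coding probes from that open frame and from general knowledge of the proteins, without an annotation of the build. The positions are those of the scanner output (hg19), chr6:127476517-127476576 for RSPO3, chr3:41280687-41280746 for CTNNB1, and chr17:63554388-63554447 for AXIN2. In the RSPO3 probe the 3 capitalised triplets are the cysteine codons of that frame.
RSPO3: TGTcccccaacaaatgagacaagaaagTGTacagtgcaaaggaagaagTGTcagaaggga
CTNNB1: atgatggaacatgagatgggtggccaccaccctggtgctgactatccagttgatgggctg
AXIN2: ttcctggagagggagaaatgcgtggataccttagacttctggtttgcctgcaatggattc

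RSPO3 was far higher on both arrays with IMQ than on the Ctrl array. On its coding probe, which was the brighter one on average and stands for the gene here, the normalized intensity was 170 in Ctrl, 1405 in IMQ, and 1059 in IMQ+X. The IMQ array stood 8.28-fold above Ctrl, a log2 difference of 3.05, and the IMQ+X array stood 6.24-fold above Ctrl, a log2 difference of 2.64. The other RSPO3 probe lies further downstream in the gene (chr6:127518034-127518093, hg19). It read 21.1 in Ctrl, 835 in IMQ, and 598 in IMQ+X. That gave log2 differences of 5.30 for IMQ vs Ctrl, or 39.5-fold, and 4.82 for IMQ+X vs Ctrl, or 28.3-fold. Both probes put the Ctrl array lowest and the IMQ array highest, and they differ in the size of the gap. The scanner output assigns both probes to the same curated RefSeq transcript, and the coding probe also to a further Ensembl transcript and a predicted RefSeq one. The Ctrl value of the downstream probe was close to the lowest value that passed as well above background on that array, 16.5, so the size of its difference depends on a dim spot.

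The measure of error within an array used here came from 300 probes that were each printed in 10 spots. The SD between such spots was 0.28 on the log2 scale near a log2 intensity of 4, 0.10 near 7, and at most 0.05 from 9 upwards. For a difference between arrays this gave a spot noise of 0.11 for the coding RSPO3 probe and 0.28 for the downstream probe in IMQ vs Ctrl. The spot noise covers the printing and reading of a spot, and not the culture, the RNA, or the labelling. Among 19197 genes that could be compared, RSPO3 had the 85th highest difference for IMQ vs Ctrl, and among 19831 genes it had the 87th highest for IMQ+X vs Ctrl.

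RSPO3 was lower on the IMQ+X array than on the IMQ array on both probes, by more than the spot noise and by less than 2-fold. The log2 difference was −0.41 on the coding probe, with a spot noise of 0.07, and −0.48 on the downstream probe, with a spot noise of 0.07. On the log2 scale, 86.6% of the RSPO3 difference between IMQ and Ctrl was still present between IMQ+X and Ctrl by the coding probe, and 90.9% by the downstream probe. Ordered from the lowest, the RSPO3 difference between IMQ+X and IMQ came 1703rd of 19136 genes.

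Of all genes compared, 4.31% stood at least 2-fold higher and 4.6% at least 2-fold lower in IMQ vs Ctrl. Among the 9 members with a measurable difference, 2 were at least 2-fold higher (RSPO3 and WNT5A) and 0 lower, with a median log2 difference of 0.19 against −0.03 over all genes. Between IMQ+X and IMQ, 0.716% of all genes were at least 2-fold higher and 0.915% lower, and 0 members reached 2-fold in either direction. Their median was −0.01 against −0.02 over all genes. For IMQ+X vs Ctrl, 3.43% of all genes were higher and 6.12% lower, and 1 member was higher (RSPO3) and 0 lower, with a median of 0.17 against 0.00. Any pair of these comparisons shares 1 array. Since the members were chosen on these values, nothing is read from the counts.

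**Figure D1:**
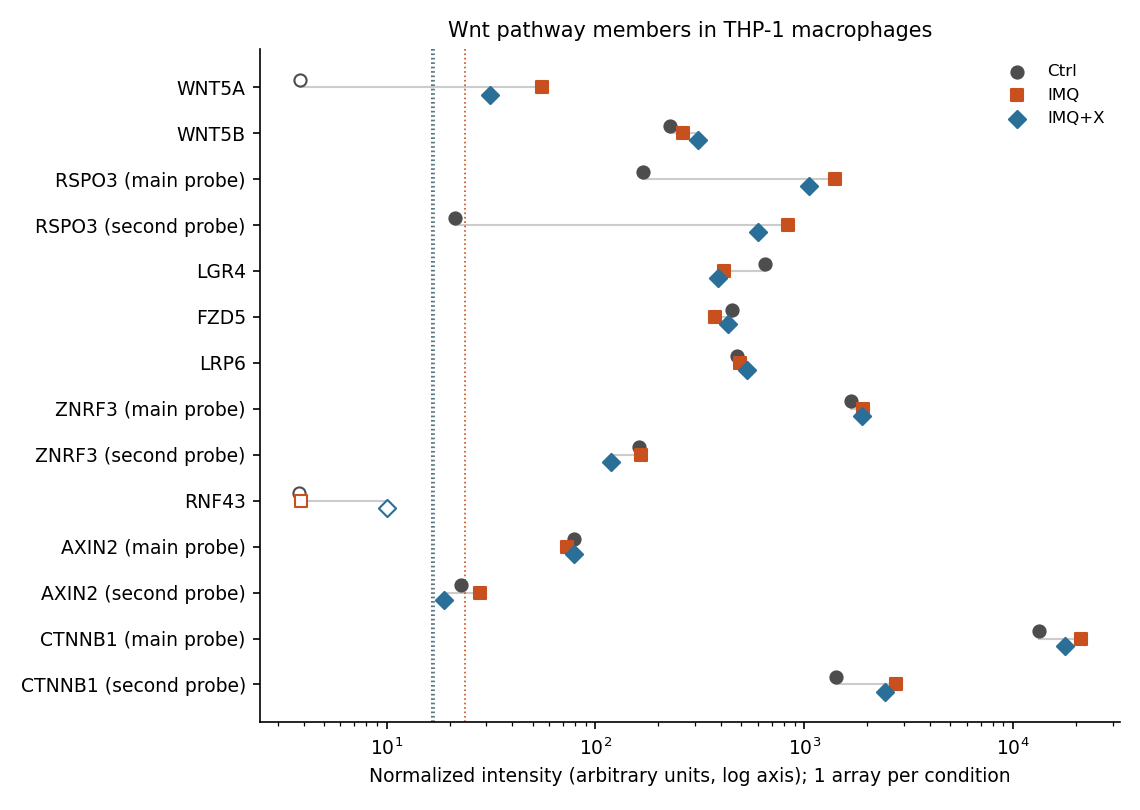
Normalized intensity (arbitrary units, log axis) of the 14 member probes on the Ctrl (circles), IMQ (squares), and IMQ+X (diamonds) arrays, 1 array each. Open symbols are spots not well above background, the grey line joins the lowest and highest array, and the dotted lines are the lowest well-above values (16.5, 23.8, and 16.9). RSPO3 moves from 170 to 1405 on its main probe, whereas most other members keep to a narrow span.

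Of the 2 Wnt ligands among the members, WNT5A was at a low level throughout. It read 3.86 in Ctrl, where the spot was not well above background, 55.2 in IMQ, and 31.3 in IMQ+X. With the Ctrl value raised to the lowest well-above value of that array, the IMQ array was at least 3.35-fold higher (log2 difference of at least 1.74) and the IMQ+X array at least 1.90-fold higher. The other lower bounds, written as at least N-fold, were set in the same way, from that floor or from the dim probe's own value where it was higher. The log2 difference of IMQ+X vs IMQ was −0.82 with a spot noise of 0.35, the 358th lowest of 19136 genes. With spike-in scaling it was −0.31 and with normexp −0.33, both within that noise. On the Ctrl array the WNT5A spot was more uneven across its pixels than 99.8% of spots of similar brightness. With normexp background correction the IMQ vs Ctrl difference of WNT5A was 0.71 and no longer reached 2-fold. WNT5B, a close relative of WNT5A, was at 227, 264, and 309. Its log2 differences were 0.22 for IMQ vs Ctrl and 0.23 for IMQ+X vs IMQ, with spot noises of 0.12 and 0.09.

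LGR4, the R-spondin receptor, was at 651, 412, and 387. Its log2 difference was −0.66 for IMQ vs Ctrl, −0.75 for IMQ+X vs Ctrl, and −0.09 for IMQ+X vs IMQ, with spot noises of 0.08, 0.08, and 0.09. Both arrays with IMQ were thus below Ctrl by more than the spot noise, and neither by 2-fold, which both passed without normalization and with spike-in scaling. FZD5, a Frizzled receptor, was at 450, 373, and 430, with a log2 difference of −0.27 for IMQ vs Ctrl and 0.20 for IMQ+X vs IMQ. The co-receptor LRP6 was at 475, 492, and 531. Its log2 difference for IMQ vs Ctrl, 0.05, was smaller than its spot noise of 0.09. That for IMQ+X vs Ctrl was 0.16 with a spot noise of 0.08. Without normalization the 2 differences were −0.39 and −0.26, and with spike-in scaling they were −0.46 and −0.19.

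ZNRF3, one of the ligases that R-spondins hold back, was at 1680, 1915, and 1896 on its main probe. The log2 difference was 0.19 for IMQ vs Ctrl and −0.01 for IMQ+X vs IMQ. Its other probe was at 161, 166, and 118, with log2 differences of 0.05 and −0.49, so the probes disagreed on IMQ+X vs IMQ. RNF43, the related ligase, was at 3.82, 3.89, and 9.98 and was not well above background on any array, so no fold is given.

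AXIN2 is a scaffold of the destruction complex and also a feedback target of β-catenin. On its coding probe it was at 79.2, 73.3, and 78.7. The log2 differences were −0.11 for IMQ vs Ctrl and 0.10 for IMQ+X vs IMQ, both within a spot noise of 0.24. Its other probe was dim, at 22.6, 27.9, and 18.9, with differences of 0.30 and −0.56 beside a spot noise of 0.40. Under the 6 normalizations the coding probe lay from −0.80 to −0.03 in IMQ vs Ctrl and from 0.01 to 0.54 in IMQ+X vs IMQ, beyond the spot noise in both with scaling to the 75th percentile, without normalization, and with spike-in scaling.

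CTNNB1, which encodes β-catenin, was at 13263, 21103, and 17757. This probe was printed in 10 spots, whose log2 SD was 0.039, 0.044, and 0.037 on the 3 arrays. The log2 difference was 0.67 for IMQ vs Ctrl, or 1.59-fold, and −0.25 for IMQ+X vs IMQ, each with a spot noise of 0.02. The coding probe was at 1418, 2738, and 2432, with log2 differences of 0.95 and −0.17. Both probes placed IMQ above IMQ+X and IMQ+X above Ctrl, and no difference reached 2-fold. With scaling to the 75th percentile the coding probe passed it in IMQ vs Ctrl, at 1.02, and without normalization the IMQ+X vs Ctrl difference of the main probe was −0.03.

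**Figure D2:**
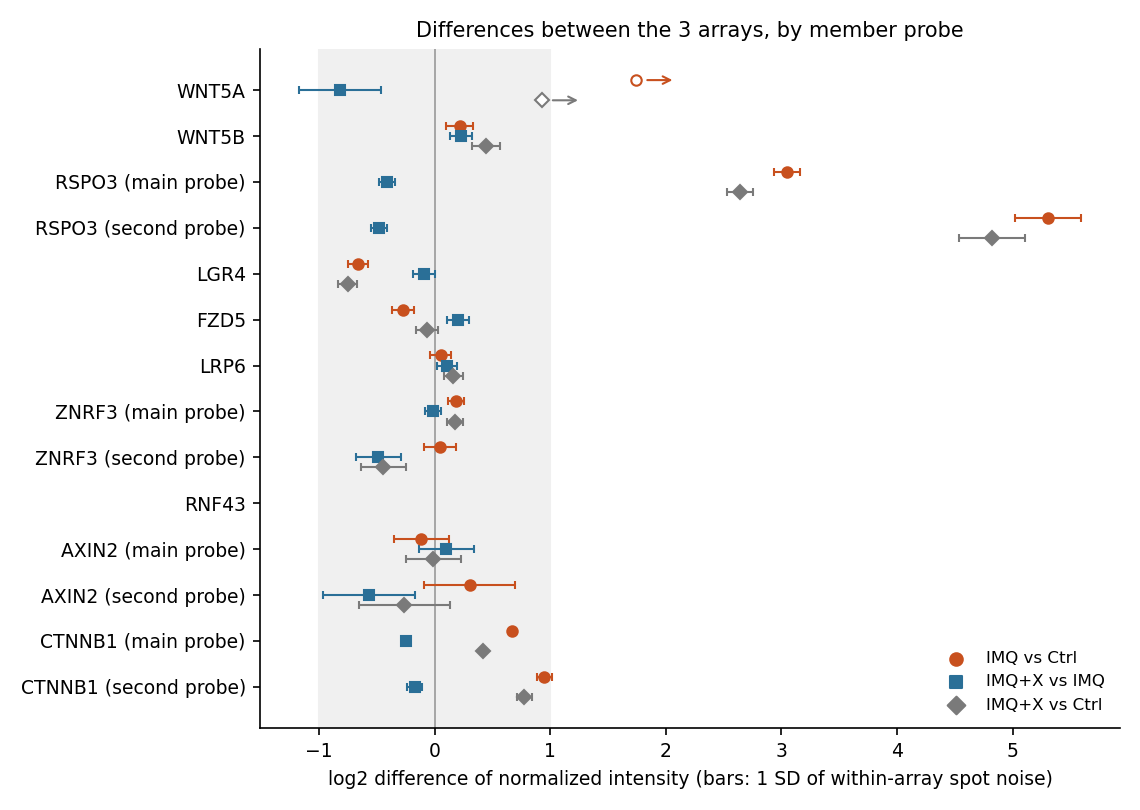
Log2 difference of normalized intensity for each member probe in IMQ vs Ctrl (circles), IMQ+X vs IMQ (squares), and IMQ+X vs Ctrl (diamonds), with bars of 1 SD of the spot noise within an array. Open symbols with an arrow are lower bounds, and the grey band covers less than 2-fold. The RSPO3 probes lie at 3.05 and 5.30 for IMQ vs Ctrl, and all IMQ+X vs IMQ values lie inside the band.

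The members were set beside the rest of the pathway in a list of 94 genes with 130 probes, ordered by role. Of these, 72 passed as well above background on each of the 3 arrays, and 16 did so on none. Well-above marks were carried by 72.0% (Ctrl), 66.6% (IMQ), and 71.9% (IMQ+X) of all transcript probes. That share counts probes and not genes, so nothing about the pathway is read from the 72. In IMQ vs Ctrl, 77 list genes could be compared. Among them 7 were at least 2-fold higher, 5 at least 2-fold lower, and 65 closer than that. Over all genes 4.31% were higher and 4.6% lower. The median log2 difference was −0.00 over the list and −0.03 over all genes. Without the 10 members, 5 of 68 were higher and 5 lower. Between IMQ+X and IMQ, 0 of 76 were higher and 2 lower, beside 0.716% and 0.915% over all genes, with a median of −0.08. For IMQ+X vs Ctrl, 4 of 77 were higher and 6 lower, beside 3.43% and 6.12%, with a median of −0.02. These shares are also the background of the counts by role.

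Among the 19 Wnt ligands, 7 were not well above background on any array (WNT2, WNT2B, WNT7A, WNT8A, WNT8B, WNT9A, and WNT16). WNT1 was at 154, 349, and 231, 2.26-fold higher in IMQ vs Ctrl with a log2 difference of 1.18. A dimmer WNT1 probe gave a difference of 0.25. The brighter probe fell short of 2-fold without normalization (0.71), with spike-in scaling (0.63), and with normexp (0.92). WNT6 was at 2747, 1647, and 1869, with a log2 difference of −0.74 for IMQ vs Ctrl. WNT3 and WNT3A had differences of 0.25 and −0.04. Of the other R-spondins, RSPO1 and RSPO2 were not well above background on any array, and RSPO4 was at 88.5, 88.5, and 84.6. Of the 2 R-spondins above background, RSPO3 was the 1 beyond 2-fold. PORCN, which adds the lipid to Wnt proteins, was at 2784, 2660, and 2685. WLS, which carries them to the cell surface, was at 240, 138, and 122, with a log2 difference of −0.80 for IMQ vs Ctrl. This difference passed 2-fold without normalization (−1.36) and with spike-in scaling (−1.43). The other WLS probes gave −0.82 and −1.67, the latter −0.81 with normexp. In IMQ+X vs IMQ these 2 probes gave 0.19 and −1.28, against −0.18 on the main probe, so the WLS probes disagreed. The −1.28 fell short of 2-fold with spike-in scaling (−0.73) and with normexp (−0.39). In IMQ+X vs Ctrl the same 2 probes gave −0.62 and −2.95, the latter −1.20 with normexp, against −0.98 on the main probe.

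LGR5 was not well above background on any array, and LGR6 was at 381, 363, and 530. Each of the 10 Frizzled genes was above background throughout, 1 of them at least 2-fold higher and 1 lower in IMQ vs Ctrl. FZD9 was at 229, 792, and 682, 3.47-fold higher in IMQ vs Ctrl. FZD2 was at 464, 226, and 189, which was 2.05-fold lower in IMQ vs Ctrl, short of 2-fold with normexp (−0.86), and 2.45-fold lower in IMQ+X vs Ctrl. FZD1 was at 732, 407, and 224, with a log2 difference of −0.85 in IMQ vs Ctrl and −0.86 in IMQ+X vs IMQ. In IMQ vs Ctrl it passed 2-fold without normalization (−1.30) and with spike-in scaling (−1.37). In IMQ+X vs Ctrl FZD1 was 3.27-fold lower. Of the 10 Frizzled genes, 8 stood below 0 for IMQ+X vs IMQ, with a median of −0.26. With spike-in scaling 5 did so, with a median of −0.03, and under the other alternatives 8 or 9 did so. Over all genes, 10327 of 19136 stood below 0 in that comparison. FZD7 and FZD6 had differences of 0.40 and 0.42 in IMQ vs Ctrl. No co-receptor reached 2-fold, and RYK, a co-receptor with a Wnt-binding domain, was at 4349, 3847, and 3785.

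Of 10 secreted or surface inhibitors compared, 3 were at least 2-fold higher and 1 lower in IMQ vs Ctrl, beside 4.31% and 4.6% over all genes. KREMEN1, a co-receptor of Dickkopf proteins, was at 1218, 3664, and 3243, 3.01-fold higher in IMQ vs Ctrl. Its 2 dimmer probes gave log2 differences of 1.29 and 0.61. DKK1, a Dickkopf inhibitor that blocks LRP6, was well above background on the IMQ array alone, at 44.6, against 15.02 in Ctrl and 13.4 in IMQ+X. It was at least 2.71-fold higher than Ctrl and at least 2.64-fold higher than IMQ+X. SFRP2, a secreted decoy of Frizzled, was at 13.8, 43.3, and 21.6, the first not well above background, and was at least 2.63-fold higher in IMQ vs Ctrl. Read from 1 probe per gene, DKK1 and SFRP2 were the 2 genes of the list at least 2-fold lower in IMQ+X vs IMQ. SFRP2 lay close to that threshold. With scaling to the 75th percentile SFRP2 fell short of 2-fold in IMQ+X vs IMQ (−0.68). Neither gene reached 2-fold in either comparison without normalization, with spike-in scaling, or with normexp. Under these settings DKK1 lay from 0.44 to 0.78 in IMQ vs Ctrl and from −0.98 to −0.46 in IMQ+X vs IMQ, and SFRP2 from 0.41 to 0.74 and from −0.61 to −0.33. The spot noise of both genes was 0.51 in IMQ vs Ctrl. In IMQ+X vs IMQ it was 0.51 for DKK1 and 0.35 for SFRP2. DKK2 was at 122, 45.8, and 47.7, 2.67-fold lower in IMQ vs Ctrl, and short of 2-fold with normexp (−0.79). SOST was at 25.3, 31.8, and 50.8, and APCDD1 at 231, 159, and 107, with log2 differences of 1.01 and −1.11 in IMQ+X vs Ctrl, or 0.37 and −0.80 with normexp. SOST also fell short of 2-fold without normalization (0.71) and with spike-in scaling (0.77).

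In the destruction complex and Dishevelled group, 0 of 13 genes reached 2-fold in any comparison. GSK3A was at 13353, 16219, and 15719, DVL1 at 11961, 18225, and 16611, and GSK3B at 2121, 2410, and 2677. Among β-catenin and its 11 transcription partners, 2 were at least 2-fold lower in IMQ vs Ctrl. LEF1, a nuclear partner of β-catenin, was at 1076, 486, and 367, which was 2.22-fold lower in IMQ vs Ctrl and 2.94-fold lower in IMQ+X vs Ctrl. CTNNBIP1, an inhibitor of the binding of β-catenin to its partners, was at 2285, 1071, and 1177 on its main probe, with a difference of −1.09 in IMQ vs Ctrl, or −0.97 with normexp, whereas its other probe gave −0.22. PYGO2, TLE1, and TCF7L2 had differences of −0.38, −0.36, and −0.18. For IMQ+X vs IMQ, 10 of these 12 genes stood below 0, against 10327 of 19136 over all genes, with a median of −0.29 and 0 at 2-fold. With spike-in scaling 6 of 12 stood below 0, with a median of −0.01, and under the other alternatives from 8 to 11 did so. In IMQ+X vs Ctrl 10 of the 12 stood below 0, against 9826 of 19831 over all genes, with a median of −0.40. In the planar polarity group PRICKLE1, a cytoplasmic polarity protein, was at 522, 129, and 89.3, which was 4.05-fold lower in IMQ vs Ctrl and 5.85-fold lower in IMQ+X vs Ctrl. CELSR1, VANGL1, and DAAM1 had differences of 0.25, −0.60, and −0.50 in IMQ vs Ctrl. In that comparison 5 of the 7 planar polarity genes compared stood below 0, against 10126 of 19197 over all genes, with a median of −0.50. With spike-in scaling 7 of 7 did so, with a median of −1.06, beside −0.56 over the probes well above background on each array.

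**Figure D3:**
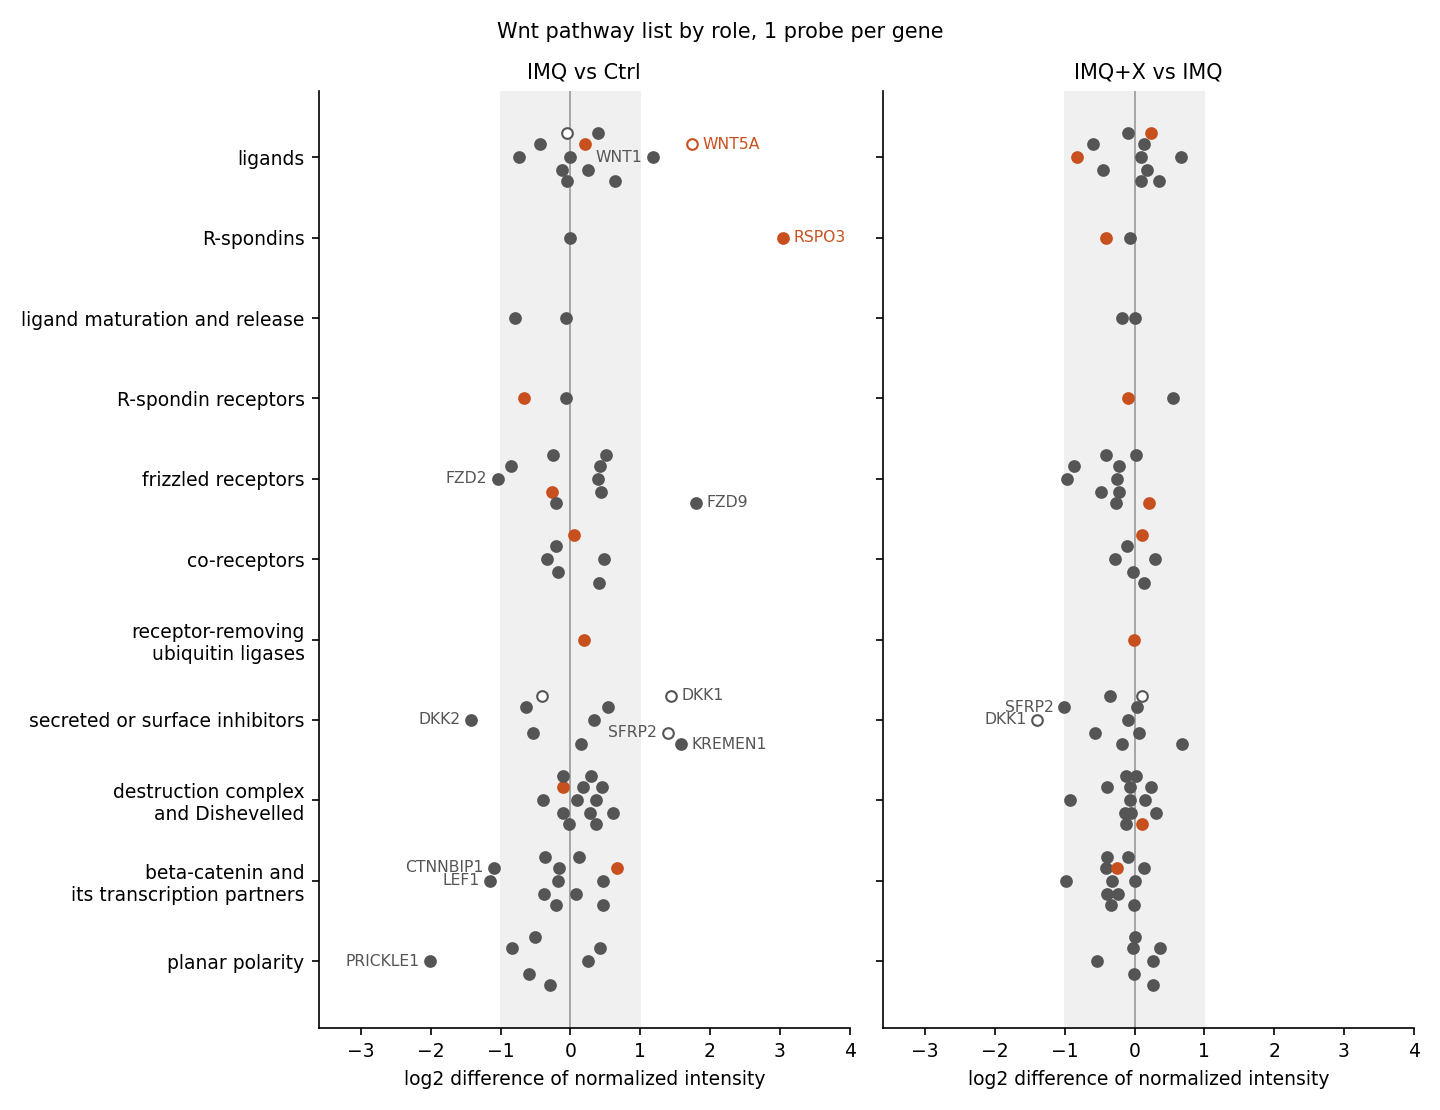
Log2 difference of normalized intensity of the Wnt pathway list by role, 1 probe per gene, in IMQ vs Ctrl (left) and IMQ+X vs IMQ (right), with the members in orange and bounds as open symbols; the vertical offset within a role carries no value. Genes at least 2-fold apart are named. On the left 7 genes lie above the grey band and 5 below it, and on the right 2 lie below it.

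Of 14 genes known as targets of β-catenin, 11 could be compared in IMQ vs Ctrl, with 1 at least 2-fold higher (DKK1), 1 lower (LEF1), and a median log2 difference of 0.09. In that comparison 5 of the 11 stood below 0, and 9 of 11 did so without normalization (median −0.49) and with spike-in scaling (median −0.56). Between IMQ+X and IMQ the median was −0.32, with 8 of 11 below 0, against 10327 of 19136 over all genes, and 1 at least 2-fold lower (DKK1). With spike-in scaling 5 of 11 stood below 0, with a median of 0.02, and under the other alternatives 7 or 8 did so. MYC was at 3767, 2317, and 2011, and CCND1, a cyclin, at 3040, 4790, and 4978. NKD1, a feedback inhibitor, was at 99.9, 106, and 56.2. LGR5, RNF43, and NOTUM were not well above background on any array.

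The genes nearest to RSPO3 in pattern were taken from 18334 genes well above background on all 3 arrays, by the distance over the log2 differences of IMQ vs Ctrl and IMQ+X vs IMQ. For the coding probe they were GJB2, NAMPT, MYO5C, G0S2, and MAMLD1, at distances from 0.05 to 0.14, and 42 genes lay within 0.5. GJB2 was at 207, 1656, and 1257. For the downstream probe they were SOCS3, SLC43A2, NR4A3, IER3, and CCL3L3, at distances from 0.13 to 0.42, and 7 genes lay within 0.5. SOCS3, an inhibitor of cytokine signalling, was at 40.8, 1759, and 1281. The measure rests on 3 arrays, and the 2 probes of RSPO3 did not share a neighbour among these.

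The 250 bases before the RSPO3 start site are shown as part of the window searched for motifs. They come from RefSeq on GRCh38.p14 (plus strand, chr6:127118421-127118670), a build other than that of the probe positions. C and T make up 74.4% of them, against a median of 50% over all promoter windows of that table.
RSPO3 promoter: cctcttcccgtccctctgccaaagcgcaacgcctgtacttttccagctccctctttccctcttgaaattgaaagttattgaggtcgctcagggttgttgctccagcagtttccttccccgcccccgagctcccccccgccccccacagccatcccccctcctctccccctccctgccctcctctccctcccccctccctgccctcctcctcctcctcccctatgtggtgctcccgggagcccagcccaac

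The table held windows, from 250 bases before to 50 after a start site, for 7 of the 10 members (RSPO3, WNT5A, WNT5B, LGR4, FZD5, RNF43, and CTNNB1), 10 windows in all. They were searched on both strands for 3 motifs. The TCF/LEF motif CTTTGAT occurred in 2.62% of all 35116 windows and in 0 of the 10. The AP-1 motif TGANTCA occurred in 7.71% of all windows and in 1 of the 10, of RNF43. The NF-kB motif occurred in 11.3% of all windows and in 1 of the 10, of FZD5. The RSPO3 window held 0 of the 3. A match is a stretch of letters, not a bound site, and its absence says only that the letters are not in this window.

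The label of the cells was checked against markers. The 6 macrophage markers matched by name each passed as well above background on the 3 arrays, and their summed intensity was 305738, 234620, and 210002, most of it CSF1R. Of the 6, 5 stood below Ctrl in IMQ vs Ctrl and 5 in IMQ+X vs Ctrl, against 10126 of 19197 and 9826 of 19831 over all genes. CD14, a co-receptor for bacterial lipopolysaccharide, was at 21875, 13399, and 9436, which was 2.32-fold lower in IMQ+X vs Ctrl. Its log2 difference in IMQ vs Ctrl was −0.71, and it passed 2-fold without normalization (−1.02) and with spike-in scaling (−1.09). CD33, a myeloid surface lectin, was 1.78-fold lower in IMQ vs Ctrl, and passed 2-fold without normalization (−1.14) and with spike-in scaling (−1.22). The epithelial markers EPCAM and CDH1 and the fibroblast markers COL1A2 and COL3A1 were not well above background on any array. The summed intensity of the 4 epithelial markers was 97.8, 81.6, and 121 (KRT14 brightest), and that of the 5 fibroblast markers was 706, 395, and 396 (PDGFRA brightest). PDGFRA, a growth factor receptor, was at 538, 253, and 222, which was 2.12-fold lower in IMQ vs Ctrl and 2.43-fold lower in IMQ+X vs Ctrl. COL1A1, at 37.8, 39.3, and 36.4, and DCN, at 112, 86.3, and 120, stayed within 2-fold with the authors' normalization. Their log2 differences were 0.06 and −0.38 in IMQ vs Ctrl, and −0.05 and 0.09 in IMQ+X vs Ctrl. With spike-in scaling the median of the 3 fibroblast markers compared was −1.05 in IMQ vs Ctrl. The keratin KRT5 was at 39.9, 17.7, and 51.4, the IMQ spot not well above background, and was at least 2.16-fold higher in IMQ+X vs IMQ. With normexp KRT5 fell short of 2-fold (0.44), as did PDGFRA in IMQ vs Ctrl (−0.95). The lymphocyte markers CD3E, CD3D, and MS4A1 passed as well above background on each array, CD3E at 246, 193, and 238, CD3D at 319, 304, and 335, and MS4A1 at 102, 83.2, and 157. The part of these levels in the member differences was not tested. A change in RNA per cell and a change in the mix of cells cannot be told apart in these arrays.

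The arrays differed in brightness before normalization. The share of probes well above background was 72.0% in Ctrl, 66.6% in IMQ, and 71.9% in IMQ+X, and the processed intensity had a 75th percentile of 472, 346, and 361. Without normalization the median log2 difference, over the probes well above background on each of the arrays, was −0.49 in IMQ vs Ctrl, 0.04 in IMQ+X vs IMQ, and −0.33 in IMQ+X vs Ctrl, and with scaling to spike-in RNA it was −0.56, 0.17, and −0.27. All member differences above are therefore relative to the bulk of the probes. In IMQ vs Ctrl, RSPO3 was higher under all 6 normalizations, by 2.59 to 3.11 on the coding probe and 3.36 to 5.31 on the downstream probe. For IMQ+X vs Ctrl these ranges were 2.17 to 2.66 and 2.91 to 4.83. The CTNNB1 difference in IMQ vs Ctrl ranged from 0.28 to 0.80 on its main probe, and the LGR4 difference from −1.18 to −0.58. In IMQ vs Ctrl, WNT5B and the main probe of ZNRF3 were above Ctrl with the authors' normalization and below it without normalization or with spike-in scaling. The RSPO3 IMQ+X vs IMQ difference on the coding probe lay from −0.55 to −0.35 under these 6.

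**Figure D4:**
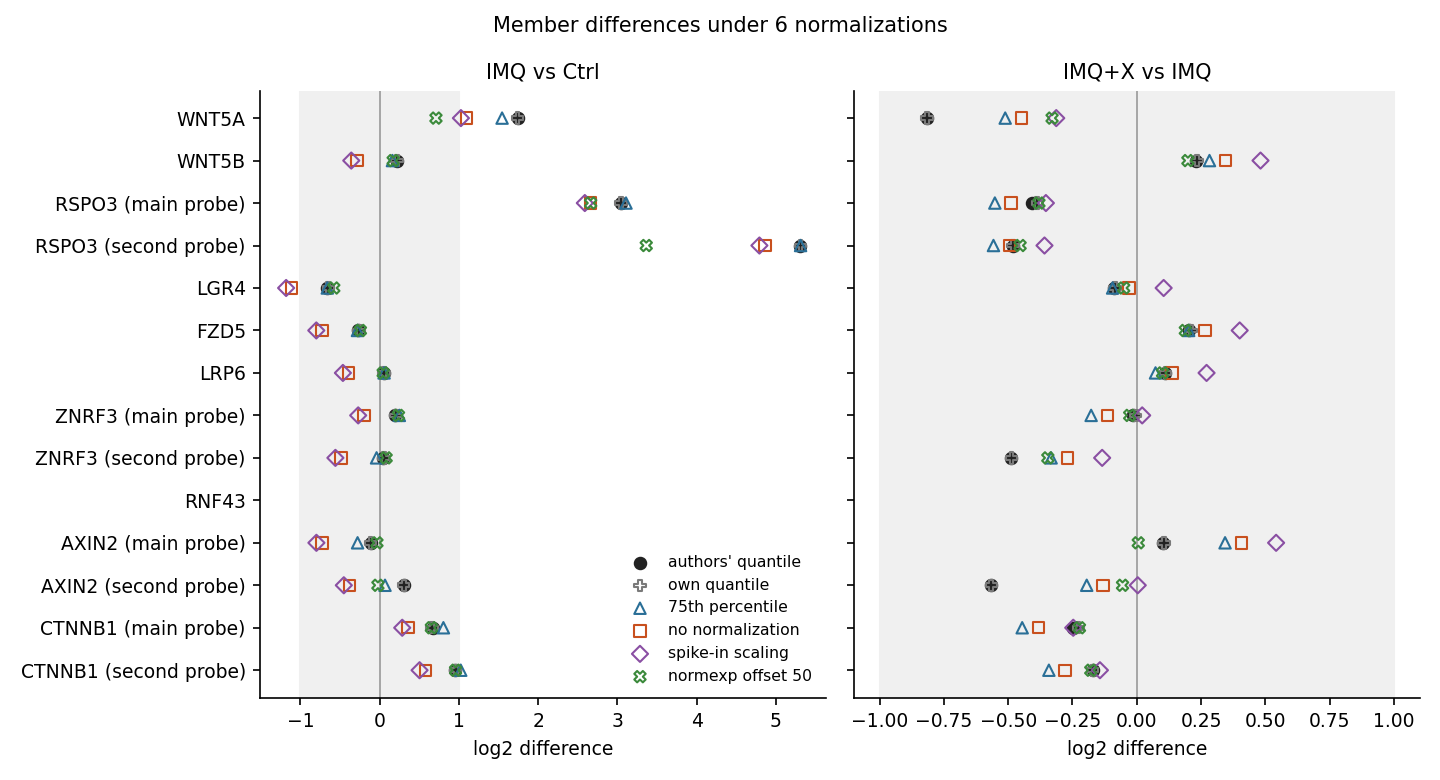
Log2 difference of each member probe in IMQ vs Ctrl (left) and IMQ+X vs IMQ (right) under 6 normalizations, 1 symbol each; the grey band covers less than 2-fold, and the axes differ in scale. The coding RSPO3 probe stays between 2.59 and 3.11 on the left, whereas WNT5B and ZNRF3 fall on both sides of 0.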

How the data were processed

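The authors deposited scanner output per array, from Feature Extraction 10.5.1.1 (probe positions on hg19), and a table of raw intensity and quantile-normalized intensity per probe. The deposited normalized intensity was used as log2, and 3 per-sample columns of detection calls were left unused. The marks for spots well above background were taken from the scanner output, without 52, 73, and 82 outlier spots on the Ctrl, IMQ, and IMQ+X arrays. A probe was compared where its brighter array was well above background, and a dim value was raised to the lowest well-above value of its array. A gene was read from the probe brightest on average (mean log2 over the 3 arrays), and 2-fold counted as apart. With 1 array per condition no test was run. The script was tested on simulated data. Alternatives used limma 3.58.1 in R 4.3.3, and other steps used Python 3.11.15, numpy 2.4.6, pandas 2.3.3, and matplotlib 3.10.9. The members, the lists, and the rule for named genes (all members, list genes at least 2-fold apart, up to 3 bright genes per role, and the 5 genes nearest to RSPO3) were chosen with earlier results of these data known. The authors' enrichment tests were not used. One further marker gene is not reported here.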

Additional observations from a re-analysis of the deposited data

How the results depend on the processing

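No paired analysis was possible because each condition has 1 array. For the same reason no array was left out. The spot noise says nothing of the spread between cultures. For a difference between 2 arrays it was 0.51 for the dim probes of WNT5A, DKK1, and SFRP2 in IMQ vs Ctrl.

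Of 216 recomputed log2 differences of the members, 144 stayed within the spot noise, 62 moved beyond it, and 10 whose reported value exceeded that noise changed sign. Quantile normalization repeated here moved no RSPO3 value and no count beyond 1.5 times. The authors' normalization counted 1771 probes at least 2-fold higher and 1431 lower for IMQ vs Ctrl, 445 and 533 for IMQ+X vs IMQ, and 1348 and 2145 for IMQ+X vs Ctrl. Except where stated, the counts that follow are of higher and then of lower at 2-fold, and the cause of each shift was not tested. No share over all genes is given for these alternatives. Their list and member counts are therefore not read as a property of the pathway.

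With scaling to the 75th percentile, the probes became 1306 and 272 for IMQ+X vs IMQ, 1 list gene was lower there, the RSPO3 difference was −0.55, and 2 members were higher in IMQ+X vs Ctrl. Without normalization the probes were 730 and 6668 for IMQ vs Ctrl, 1682 and 231 for IMQ+X vs IMQ, and 672 and 4510 for IMQ+X vs Ctrl. The list genes were then 4 and 15, 2 and 0, and 2 and 14. Of the members, 1 (LGR4) was lower than Ctrl in both IMQ vs Ctrl and IMQ+X vs Ctrl. In the same order of comparisons, the median over probes well above background on each array was −0.49, 0.04, and −0.33. RSPO3 differences were 2.66, −0.49, and 2.17. The sign turned for WNT5B (−0.29) and ZNRF3 (−0.20) in IMQ vs Ctrl, and for LRP6 (−0.26), ZNRF3 (−0.31), and CTNNB1 (−0.026) in IMQ+X vs Ctrl. With spike-in scaling the probes were 660 and 8031, 2728 and 168, and 754 and 3927. The list genes were 4 and 17, 2 and 0, and 2 and 12, beside medians over those probes of −0.56, 0.17, and −0.27. Again 1 member was lower than Ctrl in both IMQ vs Ctrl and IMQ+X vs Ctrl. RSPO3 differences from Ctrl were 2.59 and 2.24, and the sign turned for WNT5B (−0.36) and ZNRF3 (−0.27) in IMQ vs Ctrl and for LRP6 (−0.19) and ZNRF3 (−0.25) in IMQ+X vs Ctrl.

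With normexp background correction the probes were 729 and 714, 22 and 38, and 647 and 982. For IMQ vs Ctrl 1 member was then higher and the list genes were 3 and 2, 0 list genes were lower for IMQ+X vs IMQ, and RSPO3 differences from Ctrl were 2.66 and 2.28. Requiring both arrays well above background left 1 member and 4 list genes higher for IMQ vs Ctrl, and 287 and 304 probes with 1 list gene lower for IMQ+X vs IMQ; fewer probes are then compared. Without filter and floor the probes were 3751 and 3853, 2491 and 2229, and 3059 and 3828. The list then had 8 lower genes for IMQ vs Ctrl and 3 higher for IMQ+X vs IMQ, and the members had 1 higher for IMQ+X vs IMQ and 3 for IMQ+X vs Ctrl.

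At 1.5-fold in place of 2-fold the probes were 4601 and 4338, 2548 and 2440, and 4270 and 5206. List genes were 12 lower for IMQ vs Ctrl, 2 and 8 for IMQ+X vs IMQ, and 7 and 13 for IMQ+X vs Ctrl, and members were 1 lower in each comparison, with 2 higher for IMQ+X vs Ctrl. Averaging all probes of a gene gave RSPO3 differences from Ctrl of 4.18 and 3.73, and turned ZNRF3 to −0.13 in IMQ+X vs Ctrl.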
